A study of Homo sapiens with 6 samples.

Results

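CES2 and the 55 other genes listed within 1 Mb of it on chromosome 16 were examined, 56 of the 14136 entries of the table. They were chosen by position alone: chromosome 16, with the listed transcript ending at or after 65934444 and starting at or before 67945069 (GRCh38), a span of 1 Mb on each side of the listed CES2 transcript. RNA was measured in 6 libraries of Cal33, an established line from a human oral squamous cell carcinoma. Nothing in the labels names the replicates as separate cultures, so p-values measure only the spread between these libraries, which may be technical. Per the labels, the Vector group (n = 3) held cells transduced with the empty pSin-EF2 lentiviral vector and the CES2 group (n = 3) held cells transduced with pSin-EF2-CES2-FLAG. Both groups were infected with virus packaged in 293FT cells and kept under puromycin at 0.5 ug/ml. The labels do not say whether the selected cells were a pool or a clone, nor where the construct was integrated. Values are TPM (transcripts per 1000000, a level scaled by transcript length and library total), and TPM keeps no depth, so the precision of a single value is unknown.

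Carboxylesterases are serine hydrolases of the endoplasmic reticulum that cleave esters in drugs and lipids, and CES2 is known for activating irinotecan. In the human genome CES2, CES3 and CES4A lie side by side on 16q22.1, in a stretch dense with genes for transcription, protein turnover, membrane traffic and the cytoskeleton. A cDNA delivered by lentivirus is transcribed from its own promoter at its sites of integration, whereas the neighbours are transcribed from the native chromosome. The comparison thus sets the delivered gene beside the genes that surround its native copy. Levels are given per gene, so RNA from the construct and from the native CES2 gene cannot be told apart.

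The nearest neighbour is FAM96B (CIAO2B in GENCODE), which encodes a component that delivers iron-sulfur clusters to cytosolic and nuclear proteins. It is transcribed away from CES2 on the opposite strand, and the listed starts of the pair lie 44 bases apart. The start regions are shown because FAM96B and native CES2 start within the same short stretch of chromosome. Each run holds 250 bases before and 50 bases after the RefSeq start (GRCh38.p14), 5′ to 3′ on the strand of its gene. Capitals mark the 43 bases between the listed starts of FAM96B and CES2, the same bases read on opposite strands. The run for CES2 is chr16:66934221-66934520 on the plus strand, that for FAM96B is chr16:66934353-66934652 on the minus strand, and they share 168 bases. The run for CES4A, chr16:66988339-66988638 on the plus strand, belongs to the nearest carboxylesterase gene that could be tested and has no capitals.
CES2: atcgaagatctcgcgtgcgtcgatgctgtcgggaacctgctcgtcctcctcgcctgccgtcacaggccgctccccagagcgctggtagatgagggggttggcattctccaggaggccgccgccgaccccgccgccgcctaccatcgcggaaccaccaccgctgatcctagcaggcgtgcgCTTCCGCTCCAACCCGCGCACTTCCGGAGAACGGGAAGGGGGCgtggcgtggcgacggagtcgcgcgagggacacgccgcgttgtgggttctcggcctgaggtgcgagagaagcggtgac
FAM96B: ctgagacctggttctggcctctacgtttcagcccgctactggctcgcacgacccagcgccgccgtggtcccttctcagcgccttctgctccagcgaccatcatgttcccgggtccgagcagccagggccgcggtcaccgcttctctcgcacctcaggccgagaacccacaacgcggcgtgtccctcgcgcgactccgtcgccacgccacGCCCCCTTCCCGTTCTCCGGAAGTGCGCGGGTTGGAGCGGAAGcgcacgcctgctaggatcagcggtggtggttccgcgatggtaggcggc
CES4A: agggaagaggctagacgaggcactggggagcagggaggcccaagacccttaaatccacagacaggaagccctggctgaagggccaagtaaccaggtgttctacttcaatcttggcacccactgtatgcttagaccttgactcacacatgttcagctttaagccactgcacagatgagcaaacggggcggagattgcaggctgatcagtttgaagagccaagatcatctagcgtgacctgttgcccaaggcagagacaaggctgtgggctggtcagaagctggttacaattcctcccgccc
The RefSeq start of CES2 lies 27 bases from the listed start, and that of FAM96B 2 bases from it. The CES2 run is 69.0% G or C with 40 CpG dinucleotides, and the FAM96B run is 68.7% G or C with 37. The CES4A run is 54.3% G or C with 5 CpG, against a median of 14 CpG over the 34943 promoter runs of this length in the RefSeq table. On either strand, the letters CCGGAAGT, a core of ETS family motifs, were found once in the bases shared by CES2 and FAM96B and not in the CES4A run, and 4.11% of all runs hold them. The GC box GGGCGG was found at 2 places in the CES4A run and not in the other runs, against 44.9% of all runs, and TATAAA was found in none of these runs, against 11.6% of all. These matches describe letters only. Of the 56 genes, 37 had a run in the table, with a median of 30 CpG.

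CES2 (ENSG00000172831, 12 exons in a listed transcript of 3868 bases, from 66934444 to 66945069 on the plus strand) was at 45.6, 41.9 and 44.9 TPM in Vector, against 2664, 1929 and 2294 TPM in CES2. Every CES2 library lay far above every Vector library. The log2 fold change on the log2(TPM + 1) scale was 5.66 with a 95% interval of 5.25 to 6.07 (limma, adjusted p = 7.38e-06), and the ratio of the mean TPM was 52.0. Of the 12210 genes tested, 1 passed the adjusted threshold of 0.05 (0.00819%), and that gene was CES2.

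In Vector, CES2 was not among the most abundant genes of the span. Its level was the 15th, 17th and 16th highest of the 56 in Vector 1, 2 and 3, and the highest in each CES2 library. The share of the summed TPM of the 56 genes that came from CES2 stood at 2.80%, 2.14% and 2.14% in Vector, against 60.3%, 52.0% and 54.1% in CES2. Within whole libraries CES2 ranked 4209th, 4406th and 4591st by TPM in Vector and 30th, 64th and 41st in CES2. The summed TPM of the other 55 genes came to 1581, 1918 and 2055 in Vector, against 1754, 1780 and 1944 in CES2, so the groups overlapped.

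FAM96B was at 101, 123 and 113 TPM in Vector, against 104, 109 and 123 TPM in CES2. The groups overlapped fully, with means of 112 ± 11.0 and 112 ± 9.53 TPM (SD, n = 3 each). The fitted fold change lay between 0.759 and 1.31 (95% interval), a range that holds no change and is far below that of CES2. Because these genes start beside each other, their ratio within a library was taken: CES2 per FAM96B stood at 0.451, 0.340 and 0.399 in Vector, against 25.5, 17.7 and 18.7 in CES2. The ratio of the group means was 52.1 (exact two-sided permutation p = 0.1, the smallest that 3 against 3 allows).

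The other carboxylesterases stayed low in all libraries. CES3, whose listed transcript starts 16.2 kb beyond the end of CES2, was at 0.834, 0.201 and 1.08 TPM in Vector, against 0.524, 1.54 and 0.195 TPM in CES2. These values overlapped and were too low for the filter, so CES3 was not tested. CES4A, 43.5 kb beyond CES2, was at 2.66, 1.26 and 3.66 TPM in Vector, against 2.54, 3.87 and 2.19 TPM in CES2, again with overlapping groups. Its log2 fold change was 0.17 with a 95% interval of -0.62 to 0.96. Relatives can receive each other's reads where their sequences are alike. None of the 31-base words of the listed CES2 transcript (3838 words) occurred in any GENCODE transcript of CES3 or CES4A. Among the 55 neighbours only PDP2, with 3 words, and GFOD2, with 4, held any. Exact words do not show where reads with mismatches would align, and read mapping was not examined.

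PDP2 and CBFB complete the listed genes within 100 kb. PDP2, 49.7 kb before CES2, encodes a phosphatase that activates the pyruvate dehydrogenase complex. It was at 4.74, 14.3 and 18.6 TPM in Vector, against 19.4, 16.9 and 4.92 TPM in CES2. Each group had 1 low library, Vector 1 and CES2 3, and the interval of the log2 fold change was correspondingly wide, from -1.21 to 1.44. CBFB, 84.0 kb beyond CES2, encodes the partner that stabilises RUNX factors on DNA. Its levels were 75.0, 118 and 101 TPM in Vector, against 119, 68.8 and 106 TPM in CES2, with a log2 fold change of -0.01 (95% interval -0.62 to 0.59). The plot of levels for these genes shows CES2 as the only gene whose groups separate.

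**Figure D1:**
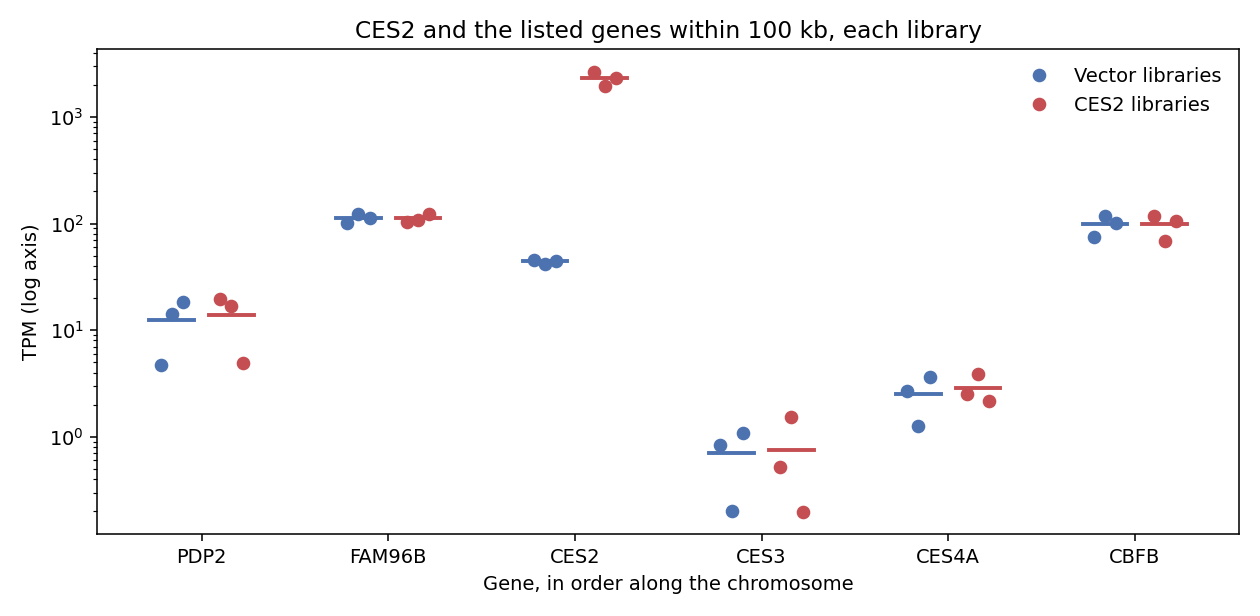
TPM on a log axis for CES2 and the listed genes within 100 kb, in order along the chromosome. Points are the 3 libraries of each group and bars are group means. CES2 separates at 41.9 to 45.6 against 1929 to 2664 TPM, and the groups overlap for PDP2, FAM96B, CES3, CES4A and CBFB.

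Across the whole span, 48 of the 55 neighbours reached 1 TPM in at least 3 libraries and were tested, and 7 did not. None of the 48 passed by limma over all genes (lowest adjusted p = 0.9998), and 0 had an unadjusted p under 0.05, against 1.09% of all genes tested. At the unadjusted threshold the count was 3 with library weights (CKLF-CMTM1, AC074143.1 and NOL3, against 5.09% of all genes). Those weights were 6.86 for CES2 1 and 0.513 to 1.12 for the other libraries, and CES2 1 was the extreme library for each of these genes. The count was 1 with no filter and with no trend (SLC9A5 in both, against 1.29% and 1.18%). With no filter the count was still kept to the 48, while the share was over all 14136 entries. C16orf86, outside the 48, also fell under 0.05 with no filter (limma, unadjusted p = 0.0185). Among the 48 the count was also 1 without CES2 2 (AC074143.1, against 1.06%) and without CES2 3 (CKLF-CMTM1, against 2.1%). Log2 fold changes ran from -0.80 to 0.24 with a median of -0.009, 21 above 0 and 27 below. The median over all tested genes was -0.057. For the 544 other tested genes of chromosome 16 it was -0.033, and for the 29 tested genes 1 to 3 Mb from CES2 it was 0.02. Missing the threshold does not show that a level is equal in the groups. The 95% interval, taken gene by gene, covered 0 for all 48 neighbours. It lay inside -1 to 1, a 2-fold change of TPM + 1 either way, for 38 of them. For the other 10 a 2-fold difference in TPM + 1 lies within the interval. In low genes a 2-fold change of TPM is smaller than 1 on this scale. It can therefore lie within an interval inside -1 to 1, as for NRN1L (mean 1.16 TPM, interval -0.69 to 0.83). The highest upper bound was 1.47, for HSF4, below the lower bound of 5.25 for CES2.

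By distance from CES2, neighbours lay on both sides of 0. The median log2 fold change was 0.055 for the 4 tested neighbours within 100 kb, 0.045 for the 12 from 100 to 250 kb, -0.023 for the 12 from 250 to 500 kb and -0.025 for the 20 farther out. In the same order, 2 of 4, 7 of 12, 4 of 12 and 8 of 20 were above 0, and the lowest values were -0.01, -0.80 (AC074143.1), -0.56 (SLC9A5 and CKLF-CMTM1) and -0.29 (PARD6A). The standard error of a neighbour had a median of 0.29. Spearman's rho between the gap to CES2 and the size of the log2 fold change was -0.17 across the 48 genes, which share the same 6 libraries. On the side of lower coordinates 2 of 10 tested neighbours were above 0, and on the other side 19 of 38 were, against 4430 of all 12210 tested genes.

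**Figure D2:**
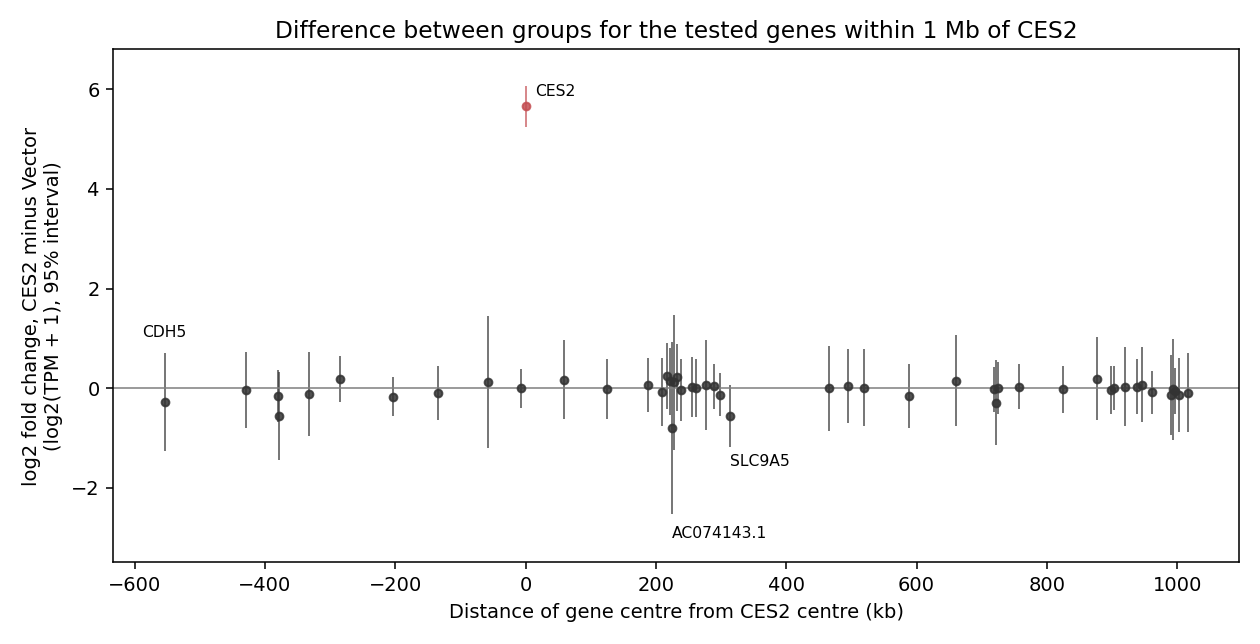
Log2 fold change, CES2 minus Vector, for the 49 tested genes against the distance of each gene's centre from that of CES2 in kb. Points are limma estimates on the log2(TPM + 1) scale and bars are 95% intervals. CES2 stands at 5.66, and the intervals of the 48 neighbours all cover 0.

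Transcription and chromatin regulators near CES2 were well expressed. E2F4, the repressor E2F of resting cells, had a mean of 138 TPM over the 6 libraries, with a log2 fold change of 0.02. CTCF, the zinc finger protein that anchors chromatin loops, was at 33.0, 52.7 and 67.2 TPM in Vector, against 55.3, 31.8 and 91.2 TPM in CES2. Its libraries differed by more within each group than the groups did from each other, and its interval ran from -0.76 to 1.06. THAP11, a zinc finger regulator of growth genes, differed by 0.01 (log2). HSF4, a heat shock factor, was at 28.4, 5.55 and 12.5 TPM in Vector, against 13.5, 26.9 and 7.21 TPM in CES2. Vector 1 and CES2 2 were the high libraries for HSF4, and its log2 fold change was 0.12 (95% interval -1.24 to 1.47). None of these 5 regulators, CBFB included, passed, and their median was 0.02.

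Signalling and cell death genes had the highest log2 fold changes of the neighbours, within their error. TRADD, the adaptor that couples TNF receptor 1 to NF-kappaB and death signals, was at 40.3, 24.9 and 30.3 TPM in Vector, against 41.3, 48.9 and 25.3 TPM in CES2. Its groups overlapped, and its log2 fold change was 0.24 (95% interval -0.42 to 0.91). NOL3, an inhibitor of apoptosis, was at 30.4, 24.8 and 29.7 TPM in Vector, against 50.9, 30.2 and 23.1 TPM in CES2. CES2 1 alone stood high for NOL3, and the difference of 0.21 did not pass. The chemokine-like and MARVEL membrane genes CMTM4, CKLF and CMTM3, which encode small membrane or secreted proteins, had mean levels of 50.8, 40.9 and 33.7 TPM and log2 fold changes of 0.18, -0.16 and -0.13. Vector 2 gave CMTM3 62.9 TPM, while the other 5 libraries gave 22.2 to 34.9.

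Genes of protein turnover and handling were 5 of 5 tested with none past the threshold, from -0.10 to 0.14. NAE1, the regulatory subunit of the enzyme that activates NEDD8, was at 104, 147 and 145 TPM in Vector, against 139, 91.0 and 141 TPM in CES2. Vector 1 and CES2 2 were its low libraries, and its log2 fold change was -0.10. PSMB10, a catalytic subunit of the immunoproteasome, had a difference of -0.05, TMEM208, which helps target proteins to the endoplasmic reticulum, of 0.04, and FBXL8, an F-box protein, of 0.14. In membrane traffic, ATP6V0D1, a subunit of the proton pump of lysosomes, had the highest mean of the neighbours, 139 TPM, and a difference of 0.01. NUTF2, which carries Ran into the nucleus, had a mean of 108 TPM and a difference of 0.02, and DYNC1LI2, a dynein light intermediate chain, had a mean of 89.1 TPM and a difference of -0.18. RANBP10 differed by -0.03.

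Chromosome maintenance and RNA decay genes lay close to 0. ACD, the shelterin subunit TPP1, and CENPT, of the inner kinetochore, each had a log2 fold change of -0.03. EDC4, a scaffold of mRNA decapping, differed by 0.03 and the protein kinase gene PSKH1 by -0.08. Of metabolic genes, TK2, the mitochondrial thymidine kinase, differed by -0.04 and HSD11B2, which inactivates cortisol, by 0.04. LCAT, the plasma enzyme that esterifies cholesterol, differed by -0.14, as did CTRL, a chymotrypsin-like protease. Of 5 tested cytoskeletal and polarity genes, 0 were past the threshold. The formin FHOD1 differed by -0.13, RIPOR1 by -0.15, PARD6A by -0.29, ELMO3 by 0.00 and ENKD1 by 0.01. SLC12A4, the potassium-chloride cotransporter KCC1, was high in Vector 1 (21.6 TPM) and CES2 2 (20.8 TPM) and at 10.4 to 11.8 TPM elsewhere, with a difference of -0.09.

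Partners of these proteins encoded elsewhere were counted as a list chosen from textbook complexes, such as RUNX factors for CBFB, decapping factors for EDC4 and shelterin subunits for ACD. Of 36 listed, 34 were tested. By limma 0 passed as higher and 0 as lower, against 0.00819% of all tested genes in either direction. At an unadjusted p under 0.05 the count was 0, against 1.09% of all tested genes. At such shares a count of 0 says little about a list of this size. The median log2 fold change of the 34 was -0.02, against -0.057 over all tested genes, with a range of -0.45 to 0.26. The remaining pair, the carboxylesterase genes CES1 and CES5A, were listed as relatives of CES2, not as members of such complexes. Neither was among the 14136 entries, so they could not be analysed.

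SLC9A5 was the only tested neighbour whose groups did not overlap. It encodes the sodium-proton exchanger NHE5 and was at 1.60, 1.27 and 1.24 TPM in Vector, against 0.694, 0.569 and 0.556 TPM in CES2. Every CES2 library lay below every Vector library, at levels near 1 TPM. The mean levels were 1.37 ± 0.198 and 0.606 ± 0.0763 TPM (SD, n = 3 each). The log2 fold change of -0.56 (95% interval -1.18 to 0.06) did not pass by limma (unadjusted p = 0.0706, adjusted p = 0.9998). It depended on the pseudocount, at -1.06 with 0.1 and -1.16 with 0.01, and did not pass with either. Among all tested genes, 2.63% had every CES2 library below every Vector library and 1.07% had every CES2 library above, 3.7% in all. A count of 1 of 48 lower and 0 higher is near that background. With the pseudocount of 1, 2.67% of tested genes had a larger log2 fold change in either direction. SLC9A5 entered the test only through its Vector libraries, since no CES2 library reached 1 TPM. Its listed transcript overlaps that of FHOD1 on the opposite strand, and how strand was handled in counting is not given in the sources used here. FHOD1 was at 22.8, 22.0 and 23.7 TPM in Vector, against 18.7, 22.4 and 21.4 TPM in CES2.

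C16orf86 also had separate groups but was too low to be tested. It was at 1.95, 0.840 and 1.22 TPM in Vector, against 0.223, 0.697 and 0.439 TPM in CES2. With no filter its log2 fold change was -0.67 (limma, unadjusted p = 0.0185, adjusted p = 0.9998), and 2.93% of all 14136 entries had every CES2 library below every Vector library. Its head-to-head partner ENKD1, a microtubule-associated protein gene whose listed start lies 52 bases away, differed by 0.01. The other 6 untested genes, BEAN1, CES3, EXOC3L1, PLEKHG4, TPPP3 and CARMIL2, did not exceed 1.54 TPM in any library and had log2 fold changes from -0.15 to 0.07 with no filter.

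**Figure D3:**
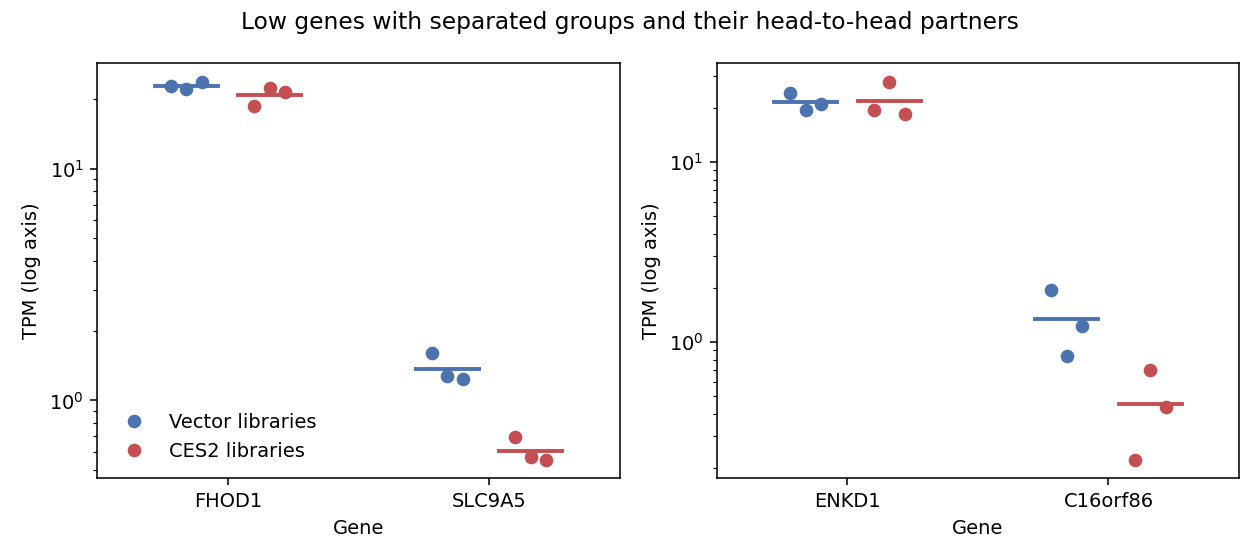
TPM on a log axis for SLC9A5 and C16orf86, with FHOD1 and ENKD1, whose listed transcripts start beside theirs on the opposite strand. The annotated SLC9A5 gene starts farther inside FHOD1. Points are libraries and bars are group means. The low genes separate, at 1.24 to 1.60 against 0.556 to 0.694 TPM for SLC9A5, while the groups of FHOD1 and ENKD1 overlap.

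The listed transcripts of 8 gene pairs in the span start within 1000 bases of each other on opposite strands, and no share over all genes was computed. Listed transcripts can be partial. The TK2 gene is annotated up to 66552544 on the minus strand, beside the CKLF start at 66552563, but its listed transcript ends at 66513783. SLC9A5 is annotated from 67237683, inside FHOD1, while its listed transcript starts at 67246915. In the pair of FAM96B and CES2 the log2 fold changes were 0.00 and 5.66. For the other tested pairs the values were 0.24 and 0.14 for TRADD and FBXL8, 0.06 and 0.04 for LRRC29 and TMEM208, -0.13 and -0.56 for FHOD1 and SLC9A5, -0.03 and -0.29 for ACD and PARD6A, -0.03 and 0.19 for RANBP10 and TSNAXIP1, and -0.03 and 0.02 for CENPT and NUTF2. CES2 is the only gene of these pairs that passed. The listed transcripts of TRADD and FBXL8, of FHOD1 and SLC9A5 and of CENPT and NUTF2 overlap, so reads of each such pair may be shared.

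Beside SLC9A5, the lowest log2 fold changes belonged to 2 entries for overlapping or readthrough gene models. AC074143.1, which overlaps FBXL8 and HSF4, was at 20.2, 5.57 and 9.38 TPM in Vector, against 1.06, 17.6 and 6.14 TPM in CES2. Its log2 fold change was -0.80, the lowest of the neighbours, with the widest interval, from -2.52 to 0.92, and it was 0.03 without CES2 1. CKLF-CMTM1, a readthrough of neighbouring genes that overlaps CKLF, was blank in CES2 1, read as 0, and was at 0.579 and 1.53 TPM in CES2 2 and 3 and at 1.07 to 1.76 TPM in Vector. Its log2 fold change of -0.56 depended on that blank and on the pseudocount: it was -0.22 without CES2 1, -1.57 with a pseudocount of 0.1 and -2.67 with 0.01. In all, 18 of the 56 listed transcripts overlap another, and 51 of 56 are protein-coding transcripts in GENCODE release 29. The median listed length was 1689.5 bases for the 56 genes against 2611.5 bases for all entries.

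For 44 of the 48 neighbours (91.7%) the spread within groups (pooled SD) was larger than the difference between them on the log2(TPM + 1) scale, against 85.9% of all tested genes. In 25 of the 48 (52.1%), Vector 1 and CES2 2 were both the highest or both the lowest library of their groups, as they were in 47.2% of all tested genes. They were both highest for 10 neighbours, among them HSF4, AC074143.1, SLC12A4, LCAT and TRADD, and both lowest for 15, among them CDH5, CTCF, PARD6A, ATP6V0D1 and CBFB. Relative to the other 4 libraries, the mean of Vector 1 and CES2 2 was 1.50 log2 units higher for HSF4 and 0.98 lower for CTCF. The plot of deviations shows these libraries alike across the group line. Leaving out Vector 1 and CES2 2 together, an alternative added after the data were seen, left the log2 fold change of CES2 at 5.80, with 0 neighbours past the threshold. With those libraries left out, 12 neighbours were lower in CES2 without overlap and 0 higher, with only 2 against 2. These were 25.0% of neighbours, against 15.6% of all tested genes in either direction and 10.9% lower. The median of the neighbours was then -0.11, against -0.055 over all tested genes. The count of neighbours lower without overlap was 8 without Vector 1 alone, with 0 higher. These were 16.7% of neighbours, against 6.91% of all genes lower and 9.76% in either direction. In either direction the count was 5 without Vector 2 (10.4%, against 18.0% of all genes) and 4 without CES2 2 (8.33%, against 8.69%). It was 4 without CES2 3 (8.33%, against 12.05%), 2 without CES2 1 (4.17%, against 8.31%) and 1 without Vector 3 (2.08%, against 9.87%). None of these neighbours passed the threshold.

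**Figure D4:**
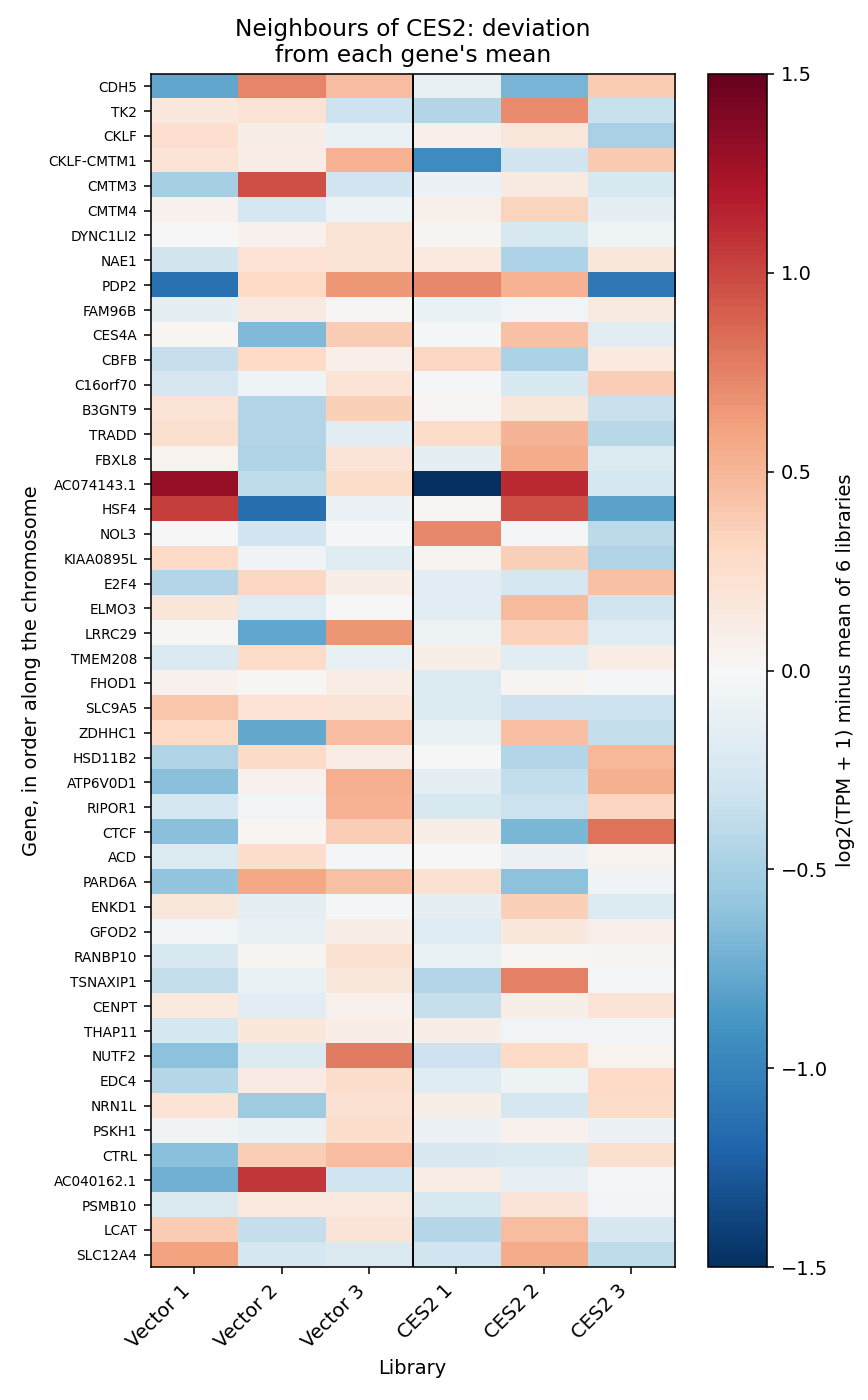
Colour gives log2(TPM + 1) minus the mean of the 6 libraries for the 48 tested neighbours, with genes in order along the chromosome and libraries in columns. The line separates the groups. Vector 1 and CES2 2 share high values for HSF4 and SLC12A4 and low values for CTCF and PARD6A.

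The cell type was checked against its markers. All 8 squamous markers were listed, with KRT5 at 1031 to 2597 TPM and TP63 at 54.3 to 117 TPM, while KRT14 was at 1.14 to 2.97 TPM. Of 5 fibroblast markers 1 was listed, COL1A1, at 3.89 to 10.5 TPM. Of 5 immune markers 2 were listed, CD68 at 5.47 to 11.65 TPM and CD14 at no more than 0.6945 TPM. CDH5, a neighbour of CES2 that encodes the cadherin of blood vessel endothelium, was at 8.25, 25.3 and 20.9 TPM in Vector, against 13.7, 8.75 and 19.6 TPM in CES2. The endothelial markers VWF and PECAM1 did not exceed 1.87 and 0.549 TPM, and KDR was not listed. CDH5 had a log2 fold change of -0.28 (95% interval -1.27 to 0.71), and its groups overlapped.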

How the data were processed

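The deposited table gives TPM for 14136 gene entries in 6 libraries, and no depth. Its header names no unit; TPM was inferred from the values, since each deposited column sums to between 999804 and 999893. Per the submitters' processing notes, the tools were StringTie 1.3.3, HISAT2 2.1.0 and edgeR 3.0.8 and the builds hg38 and GRCh38, without stated roles. For annotation, filters and strand handling the authors' settings were not given in the sources used here. Between 73 and 279 entries per library were blank and were read as 0. Exon numbers and lengths of listed transcripts are other values that the authors deposited.

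Groups came from sample titles. The 12210 genes that reached 1 TPM in 3 or more libraries were transformed as log2(TPM + 1) and compared as CES2 minus Vector in R 4.3.3 by limma 3.58.1 with a mean trend, empirical Bayes moderation and group as the only term. P-values were adjusted by Benjamini-Hochberg over all tested genes, with a threshold of 0.05. Fold changes on this scale understate changes of low genes, and 95% intervals are gene by gene. Single values were compared by exact permutation in scipy 1.17.1 (Python 3.11.15, pandas 2.3.3, matplotlib 3.10.9). All 56 genes of the span were present in GENCODE release 29 by identifier, 55 with the listed coordinates. Of 66 protein-coding genes annotated there, the other 10 were not among the 14136 entries and could not be analysed. Start regions came from RefSeq (GRCh38.p14). Membership follows position, but the choice of this span and of the lists was made with earlier results of these data known. Named genes were CES2, CES3, CES4A, members within 100 kb, the 5 highest and 5 lowest log2 fold changes, the 5 highest levels, non-overlapping members and up to 3 per role list; others are named from the full list of members after their values were seen. Alternatives covered libraries left out, the replicate number as a block, scaling, filters, pseudocounts, limma settings, blanks, window size and overlapping genes.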

Additional observations from a re-analysis of the deposited data

How the results depend on the processing

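The log2 fold change of CES2 stayed between 5.54 and 5.82 and past the threshold in all 18 refits. No neighbour passed in any of them (lowest adjusted p = 0.784, with library weights). Over those refits 855 single neighbour values were recomputed and 160 changed sign, so the signs of the neighbours' small differences carry no call. The replicate block, the filters, the fit without trend and the fit without blanks cannot change a gene's log2 fold change. They alter only its error or whether it was tested, so the 855 include values that could not move. ELMO3, whose estimate rounds to 0, was counted as changed even in some of these. The sign held in every refit that tested the gene for 7 neighbours: CKLF-CMTM1, CMTM4, DYNC1LI2, FHOD1, PARD6A, SLC9A5 and TRADD. CKLF-CMTM1 and SLC9A5 were not tested with at least 5 TPM required, nor CKLF-CMTM1 with blank entries left out. The count of genes past the threshold was 1, and it was 4 with library weights, 2 with Vector 1 and CES2 2 left out, and 1 to 2 with each library left out in turn (2 without CES2 3). Results with library weights lean on CES2 1, at a weight of 6.86 against 0.513 to 1.12 for the other libraries. The median log2 fold change of the neighbours, -0.009, was -0.108 with library weights, -0.11 with Vector 1 and CES2 2 left out, -0.124 to 0.046 with each library left out, 0.053 after median rescaling and 0.036 after quantile normalization. For all tested genes, at -0.057, the medians were in the same order -0.067, -0.055, -0.116 to -0.003, 0.003 and -0.012. Without Vector 1 the neighbours gave -0.124 and all tested genes -0.061. The count of neighbours with non-overlapping groups, 1, was 2 after quantile normalization, 0 with at least 5 TPM required, 0 within 250 kb, 0 without overlapping genes, 12 with Vector 1 and CES2 2 left out and 1 to 8 with each library left out. Over all tested genes the non-overlapping share was 3.7%, and it was 15.6% with that pair left out and 8.31% to 18.0% with each library left out. In each case the cause was not tested.

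The replicate numbers did not pair the libraries: deviations of same-numbered libraries correlated at 0.145, -0.524 and 0.375, and Vector 1 correlated best with CES2 2, at 0.682. With the replicate block 1 gene passed, CES2 (limma, adjusted p = 8.69e-04), and 0 neighbours passed. Every replicate number occurs in both groups, so the block changes errors and p-values but cannot change log2 fold changes or overlaps. The values of 5.66 for CES2, -0.009 for the median of the neighbours and 1 non-overlapping neighbour were therefore fixed in advance. TPM holds no depth, so low levels such as those of SLC9A5 and C16orf86 have no counting interval.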
